A study of Mus musculus with 6 samples.

Results

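The genes described here encode the proteins of the mitochondrial ribosome, and they were taken as every row of the deposited table whose mouse symbol is Mrpl or Mrps followed by a number and at most 1 letter, without pseudogene symbols. The rule found 78 genes among 18124 listed, 49 of the large subunit (Mrpl) and 29 of the small subunit (Mrps). Their RNA was measured by bulk sequencing in mesenchymal stem cells of mouse skeletal muscle, sorted from quadriceps of 6 naïve male Col1-eGFP mice by the collagen 1 reporter and the surface protein Sca-1, and used at passage 4. All cells carried the reporter, and all were exposed for 72 hours, with changes at 24 and 48 hours, to medium conditioned by macrophages grown from wild-type mouse bone marrow for 7 days. In 3 libraries the medium came from control macrophages and in the other 3 from macrophages made senescent by 300 µM hydrogen peroxide for 3 hours, repeated after 3 days and followed by 14 days in culture (control and senescent medium below). How long the control macrophages were cultured is not stated. The 3 libraries of a medium are not said to come from separate mice, cultures or batches of medium, so the error behind every p-value is the scatter among the libraries at hand and may be only technical. The comparison asks how medium from senescent macrophages alters the RNA of these stem cells.

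The mitochondrial ribosome translates the few proteins that mitochondrial DNA encodes, all of them core subunits of the respiratory chain and the ATP synthase. Its rRNAs come from mitochondrial DNA, whereas every one of its proteins is encoded in the nucleus, made in the cytosol and imported. The small subunit decodes the mRNA and the large subunit forms the peptide bond and lets the new protein out through its tunnel into the inner membrane. Some of the proteins have counterparts in the bacterial ribosome and others are particular to mitochondria.

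All 78 genes passed the filter on low counts and were tested. Levels are CPM, that is estimated counts scaled to the TMM-adjusted library total, and a log2 fold change is senescent over control medium, fitted with edgeR's quasi-likelihood test. A gene is called changed at a Benjamini-Hochberg adjusted p under 0.05 over all 14644 genes tested. The libraries held 17228200 to 21659400 estimated counts. Senescent library 3 stood apart: it differed from senescent libraries 1 and 2 by a chi-square of 8.38 and 6.98 per gene, where those differed by 2.70 and control libraries by 2.93 to 4.46, and its most abundant feature held 2.78% of counts, against 4.25% to 5.29% elsewhere. Without it 8 members were called higher and 10 lower, and Mrps6 stood at -1.77. Apart from Mrpl23, the members had 78.8 to 2114 counts in a library. The sorted cells' markers were listed (6 of 6, summed level 10083 to 10156 CPM in control and 13396 to 13947 CPM in senescent medium, 4 called higher and 1 lower). Of 6 macrophage markers, Ptprc, Adgre1 and Itgam were not listed, and the other 3 summed to 11.4 to 14.2 CPM in control and 14.7 to 19.6 CPM in senescent medium, with Lyz2 called higher (0.80) and Csf1r lower (-0.53, both log2). Of 4 endothelial markers Cdh5 was not listed, and the other 3 summed to 23.5 to 26.0 CPM in control and 25.7 to 32.5 CPM in senescent medium, mostly Tek, with Kdr called higher (1.25). Of 5 muscle markers Myod1, Pax7, Myf5 and Myog were not listed, and Des, at 1.41 to 1.89 CPM in control and 4.33 to 5.86 CPM in senescent medium, was called higher (1.65). The 7 proliferation genes were all lower in senescent medium, with a summed level of 634 to 665 CPM in control and 356 to 372 CPM in senescent medium; the part of these marker shifts in the members' values was not tested. In bulk RNA, fewer cells of a type and less RNA per cell cannot be told apart.

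Most mitochondrial ribosomal protein genes moved little, and one of them, Mrps6, fell by more than any other. Of the 78 members, 16 were called higher and 13 lower in senescent medium, 29 in all (37.2%), where 49.5% of all tested genes were called, 24.6% higher and 24.9% lower. The median log2 fold change was -0.031 over the members and -0.00096 over all tested genes, and the median absolute change was 0.15 and 0.23. In 77 of the 78 members (98.7%) the fitted change was within 0.5 on the log2 scale, against 79.3% of all tested genes. A called change of at least 1.5-fold was seen in 1 member, Mrps6, against 13.7% of all tested genes. The libraries of the 2 media did not overlap for 36 members (46.2%), against 55.8% of all tested genes.

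**Figure D1:**
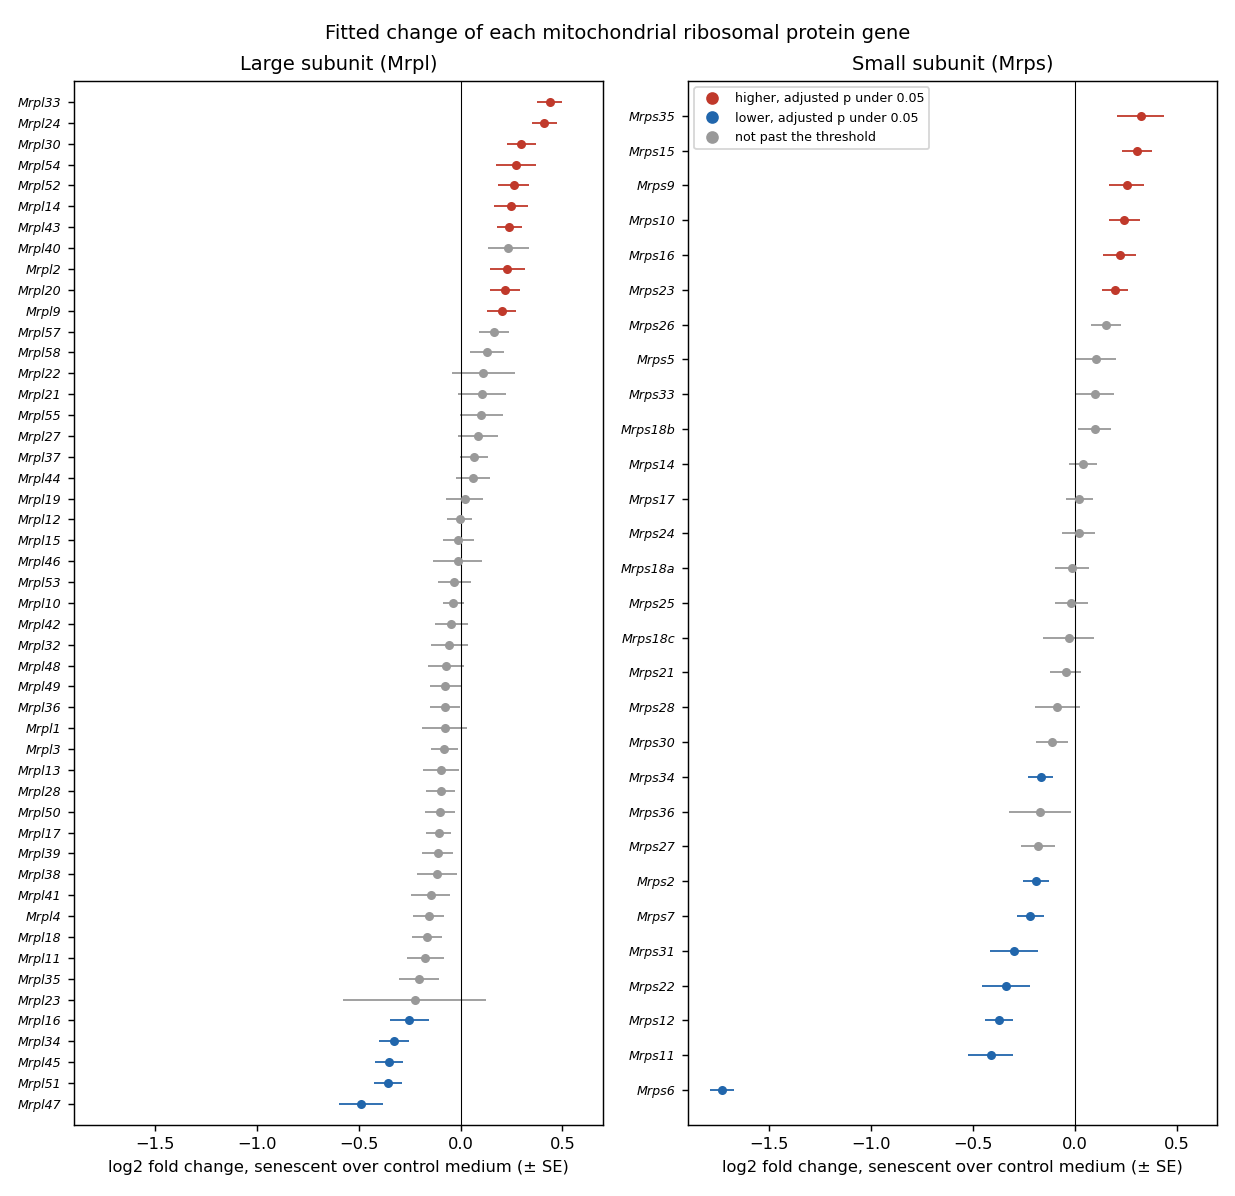
Fitted log2 fold change, senescent over control medium, of the 49 large subunit genes (left) and the 29 small subunit genes (right), ordered by size. Bars are standard errors from 3 libraries per medium, red and blue points are genes called higher and lower; Mrps6 stands at -1.73 and all others lie within 0.5 of 0.

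Mrps6 encodes the small subunit protein related to bacterial S6, which sits on the platform of the subunit beside the protein of Mrps18c. It measured 107, 97.5 and 96.4 CPM in control medium and 27.4, 31.5 and 31.7 CPM in senescent medium. Every senescent library lay far below every control library. The mean went from 100.4 ± 5.94 to 30.2 ± 2.41 CPM (SD, n = 3), a log2 fold change of -1.73 ± 0.058 (SE, edgeR adjusted p = 2.79e-20). In control medium it was the most abundant member, both in CPM and per length (65.5 CPM per kb of exon). In senescent medium its 19.7 CPM per kb lay below those of several members, from Mrpl34 (39.4) and Mrps21 (34.7) down to Mrpl20 (19.8). Called falls of at least 2-fold made up 3.27% of all tested genes. Over all 17 alternative settings its log2 fold change stayed between -1.81 and -1.67 and was called in each.

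Mrps6 shares its first exon and its start region with a neighbour on the same strand, Slc5a3, which encodes the sodium-dependent myo-inositol transporter that cells use to take up an osmolyte. The stretch upstream of both starts is shown because it lies in the promoter window of both genes. It is RefSeq sequence of build GRCm38.p6, it ends 66 bases before the Mrps6 start and 52 bases before the Slc5a3 start, and capitals mark GGGCGG (GC box) matches, searched on both strands and chosen after the sequence was seen:
Mrps6 (chr16:92058086-92058269, + strand): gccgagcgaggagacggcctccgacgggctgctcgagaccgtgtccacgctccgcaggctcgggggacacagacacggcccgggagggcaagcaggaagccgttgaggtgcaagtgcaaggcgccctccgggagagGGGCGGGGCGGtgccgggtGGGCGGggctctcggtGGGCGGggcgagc
The RefSeq starts lie 14 bases apart and the 300-base windows share 286 bases. Slc5a3 measured 179, 185 and 181 CPM in control medium and 25.5, 27 and 28.2 CPM in senescent medium. Its groups were as far apart as those of Mrps6 or farther, with means going from 182 ± 2.74 to 26.9 ± 1.34 CPM (SD, n = 3). Its log2 fold change was -2.75 ± 0.048 (edgeR adjusted p = 3.19e-28), the smallest adjusted p of all tested genes. The annotated exons of both genes have 159 bases in common, 10.4% of the Mrps6 exon length (1533) and 1.46% of that of Slc5a3 (10913). Reads from these bases cannot be assigned to one gene. If Slc5a3 reads were spread evenly over its exons, the shared bases would hold 2.65 CPM in control and 0.392 CPM in senescent medium, beside a difference of 70.2 CPM in Mrps6. Coverage of the shared bases was not measured, and the annotation used for the counts is not stated. The part of such reads in the Mrps6 values was not tested. A further annotated gene that shares 305 exon bases with Mrps6, Gm49711, had a mean of 0.108 CPM in control and 0.0569 CPM in senescent medium.

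**Figure D2:**
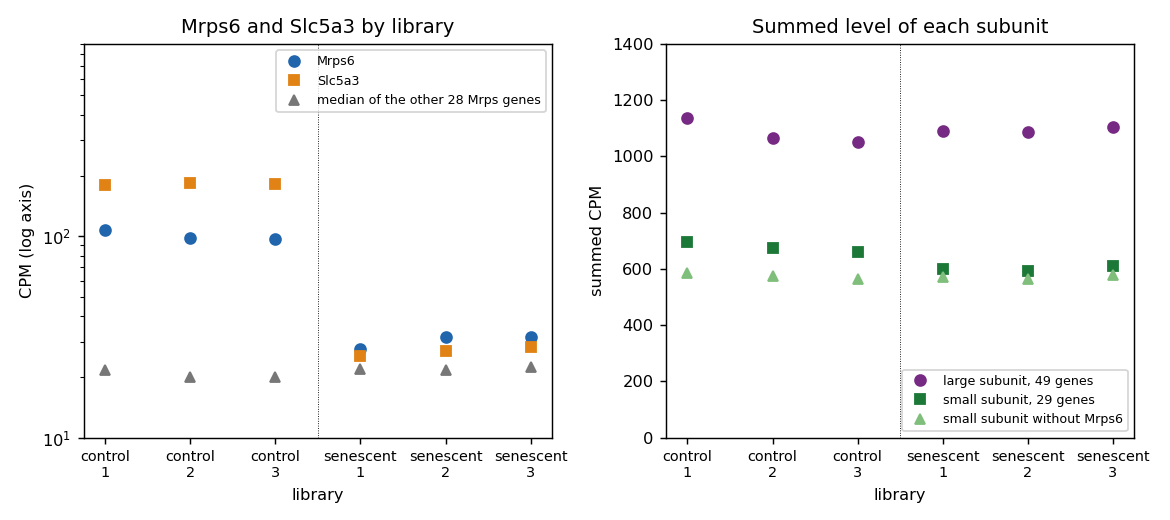
Left, CPM of Mrps6, Slc5a3 and the median of the other small subunit genes in each library (log axis); right, summed CPM of the large subunit genes, the small subunit genes and the small subunit genes without Mrps6. Mrps6 and Slc5a3 drop in all 3 senescent libraries, and the small subunit sum is 594 to 611 there against 659 to 694 in control medium, whereas the TMM-scaled sum without Mrps6 overlaps between media.

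Both subunits held genes called in each direction, and in TMM-scaled CPM the summed level of the small subunit, not that of the large one, separated the media. Of the 49 large subunit genes 10 were called higher (20.4%) and 5 lower (10.2%). Of the 29 small subunit genes 6 were called higher (20.7%) and 8 lower (27.6%). Among all tested genes 24.6% were called higher and 24.9% lower. The median log2 fold change was -0.035 for the large and -0.017 for the small subunit. The large subunit genes summed to 1135, 1067 and 1052 CPM in control medium and to 1091, 1085 and 1106 CPM in senescent medium, and these values overlap. The small subunit genes summed to 694, 674 and 659 CPM in control medium and to 598, 594 and 611 CPM in senescent medium, without overlap, a mean change of -11.1%. Mrps6 made up 14.8% of the small subunit sum in control and 5.02% in senescent medium. Without it the small subunit sums were 587, 576 and 563 CPM and 571, 563 and 579 CPM, a mean change of -0.811%, and the media overlapped. As a share of unscaled library totals, however, the small subunit genes without Mrps6 held 0.0604%, 0.0589% and 0.0581% of counts in control and 0.0549%, 0.0544% and 0.0571% in senescent medium, without overlap and with a mean change of -6.23%. The ratio of the large to the small sum went from 1.60 ± 0.0275 to 1.82 ± 0.00841 (SD, n = 3) with Mrps6 and from 1.88 ± 0.0440 to 1.92 ± 0.0105 without it. The difference between the subunits' counts was not tested.

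The balance of higher and lower calls depended on the scaling. With library totals in place of TMM factors, which moves the median of all genes to -0.082, 5 members were called higher and 24 lower (4 and 14 in the large, 1 and 10 in the small subunit), where 17.7% and 32.9% of all tested genes were called. With trends in GC content and exon length removed, 11 were called higher and 18 lower, where 25.5% and 24.6% of all tested genes were called. With DESeq2, 10 were called higher and 8 lower, where 21% and 20.9% of all tested genes were called. A set of 13 members kept its call in all 17 alternative settings: Mrpl24, Mrpl30, Mrpl33, Mrpl43 and Mrps15 higher, and Mrpl34, Mrpl45, Mrpl47, Mrpl51, Mrps6, Mrps7, Mrps11 and Mrps12 lower. Their values by library follow, and the remaining 16 calls are each lost under at least 1 setting.

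Among the large subunit genes, the largest rise was that of Mrpl33, whose small protein is related to bacterial L33. Mrpl33 measured 33.8, 34 and 34.4 CPM in control medium and 43.5, 46.3 and 48.5 CPM in senescent medium. All senescent libraries lay above all control libraries, with means going from 34.1 ± 0.314 to 46.1 ± 2.52 CPM (SD, n = 3) and a log2 fold change of 0.44 ± 0.059 (SE, edgeR adjusted p = 2.88e-07). Mrpl24, related to a bacterial protein at the mouth of the exit tunnel, measured 28.6, 28.5 and 29.1 CPM in control medium and 38.9, 36.4 and 39.2 CPM in senescent medium. These also did not overlap, and the log2 fold change was 0.41 ± 0.062 (edgeR adjusted p = 1.87e-06). Exons of Rrnad1 on the opposite strand cover 26.3% of the Mrpl24 exon length, and without a stated strand setting their reads cannot be told apart.

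Mrpl30, related to bacterial L30, measured 27.9, 28.1 and 24.4 CPM in control medium and 34.8, 32.1 and 32.2 CPM in senescent medium. Each senescent library was above the highest control library, and the log2 fold change was 0.30 ± 0.069 (edgeR adjusted p = 6.18e-04). Mrpl43, a protein without a bacterial counterpart, measured 31.5, 31.4 and 32.4 CPM in control medium and 39.4, 37.5 and 35.6 CPM in senescent medium. The media did not overlap, and the log2 fold change was 0.24 ± 0.062 (edgeR adjusted p = 0.00192). The gene shares 33.4% of its exon length with Twnk, the mitochondrial DNA helicase gene on the opposite strand, which was not called (0.032). The other 6 large subunit genes called higher were Mrpl54 (0.27), Mrpl52 (0.26), Mrpl14 (0.25), Mrpl2 (0.23), Mrpl20 (0.22) and Mrpl9 (0.20, all log2). For Mrpl54 and Mrpl20 the libraries of the media overlapped, and all 6 calls are lost with library totals.

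The largest fall in the large subunit was that of Mrpl47, related to bacterial L29 near the tunnel exit. Mrpl47 measured 11.7, 12.2 and 10.7 CPM in control medium and 7.83, 8.87 and 8.07 CPM in senescent medium. The media did not overlap, the means went from 11.5 ± 0.764 to 8.26 ± 0.546 CPM (SD, n = 3), and the log2 fold change was -0.49 ± 0.11 (edgeR adjusted p = 4.07e-04). Exons of Ndufb5 on the opposite strand cover 13.9% of its exon length, and Ndufb5, a complex I subunit gene, was not called (0.086).

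Mrpl51, a mitochondria-specific protein, measured 38.5, 34.3 and 32.8 CPM in control medium and 27.2, 27.6 and 27.5 CPM in senescent medium. The senescent libraries lay close together and below every control library, with a log2 fold change of -0.36 ± 0.068 (edgeR adjusted p = 5.16e-05). Mrpl45 encodes the protein that anchors the ribosome to the inner membrane where new proteins leave the tunnel, and it measured 31.4, 30.9 and 32.3 CPM in control medium and 23.2, 25 and 25.8 CPM in senescent medium. Its media did not overlap either, and the log2 fold change was -0.35 ± 0.068 (edgeR adjusted p = 6.27e-05). Mrpl34, related to bacterial L34, measured 33, 28.5 and 28.7 CPM in control medium and 24.7, 24.4 and 22.6 CPM in senescent medium. It was lower in all 3 senescent libraries, with a log2 fold change of -0.33 ± 0.073 (edgeR adjusted p = 3.76e-04). The fifth large subunit gene called lower was Mrpl16, with a log2 fold change of -0.25 ± 0.096 (edgeR adjusted p = 0.0301), a call lost with DESeq2.

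**Figure D3:**
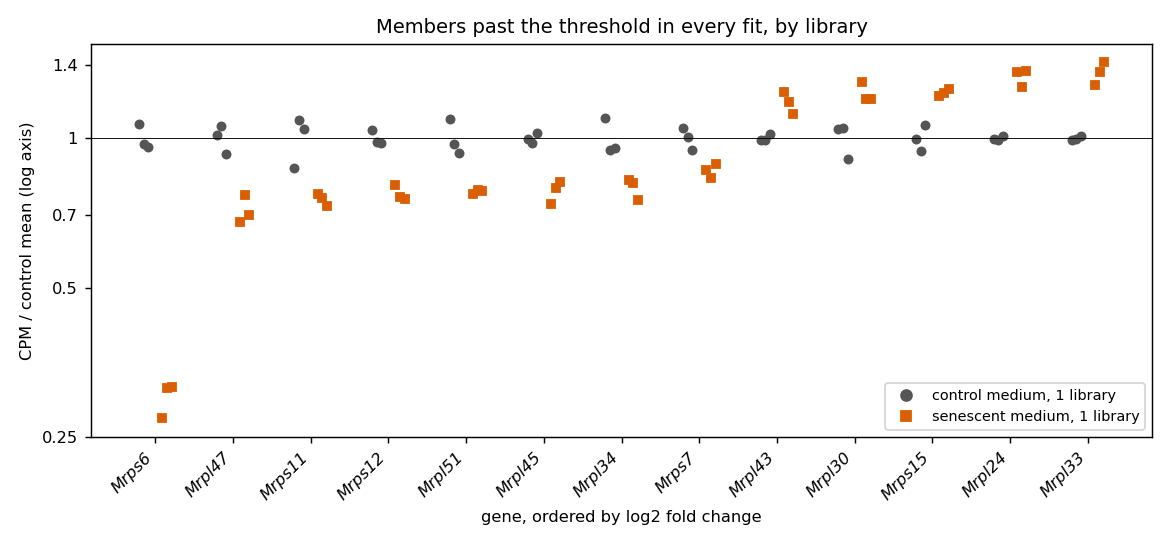
CPM of each library divided by the gene's mean in control medium (log axis) for the 13 members called in every setting, ordered by log2 fold change; each point is 1 library. In all 13 genes the 3 senescent libraries lie on one side of the 3 control libraries.

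In the small subunit, Mrps6 was followed by Mrps11, related to bacterial S11 on the platform that meets the large subunit. Mrps11 measured 10.3, 12.9 and 12.3 CPM in control medium and 9.12, 8.95 and 8.65 CPM in senescent medium. The lowest control library still lay above the highest senescent library, and the log2 fold change was -0.41 ± 0.11 (edgeR adjusted p = 0.00221). Mrps12, related to the bacterial decoding-centre protein S12, measured 29, 27.4 and 27.3 CPM in control medium and 22.4, 21.2 and 21 CPM in senescent medium. Its media did not overlap, with means going from 27.9 ± 0.961 to 21.5 ± 0.764 CPM (SD, n = 3) and a log2 fold change of -0.37 ± 0.071 (SE, edgeR adjusted p = 5.56e-05). Mrps7, related to the bacterial S7 that organises the head of the subunit, measured 34.4, 33 and 31 CPM in control medium and 28.3, 27.2 and 29.1 CPM in senescent medium. The senescent libraries were all lower, with a log2 fold change of -0.22 ± 0.066 (edgeR adjusted p = 0.00647). Also called lower were Mrps22 (-0.34), Mrps31 (-0.30), Mrps2 (-0.19) and Mrps34 (-0.17, all log2). These 4 calls are lost with DESeq2, and 63.4% of the Mrps34 exon length is covered by Mapk8ip3 on the opposite strand.

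The only small subunit gene called higher in every setting was Mrps15, related to a bacterial protein that binds rRNA and contacts the large subunit. Mrps15 measured 20.2, 19.1 and 21.5 CPM in control medium and 24.6, 25 and 25.4 CPM in senescent medium. All senescent libraries lay above all control libraries, with means going from 20.3 ± 1.2 to 25 ± 0.38 CPM (SD, n = 3) and a log2 fold change of 0.31 ± 0.075 (SE, edgeR adjusted p = 9.87e-04). The other 5 genes called higher were Mrps35 (0.32), Mrps9 (0.26), Mrps10 (0.24), Mrps16 (0.22) and Mrps23 (0.20, all log2). For Mrps16 the media overlapped, and all 5 calls are lost with library totals.

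Several members with a known role beside or apart from their subunit were not called. Mrps18a, Mrps18b and Mrps18c form one family with bacterial S18, of which Mrps18c is counted below as the counterpart, and the first of them is part of the large subunit despite its name. Their log2 fold changes were -0.013 ± 0.082, 0.097 ± 0.08 and -0.03 ± 0.12 (SE). Mrps30, whose protein is likewise found in the large subunit, was at -0.11 ± 0.078, and Mrps36, now known as a subunit of the 2-oxoglutarate dehydrogenase complex, at -0.17 ± 0.15. Mrpl12, a stalk protein also reported to bind the mitochondrial RNA polymerase, measured 40.2, 35.7 and 38.2 CPM in control medium and 38.7, 37.3 and 37.5 CPM in senescent medium, and these overlapped. Mrpl58, a peptidyl-tRNA hydrolase that rescues stalled ribosomes, was at 0.13 ± 0.084. With the genes assigned by their place in the ribosome, the large subunit had 51 members, 10 called higher and 5 lower, and the small subunit 26 members, 6 called higher and 8 lower.

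Mrpl23 was the lowest member, with 16.4 to 32.6 estimated counts in a library and 1.21 CPM in control medium. Its processed pseudogene Mrpl23-ps1 held 310.4 to 496 counts, and measured 20.8, 16.9 and 17.5 CPM in control medium and 22.9, 25.5 and 23.9 CPM in senescent medium. The pseudogene's libraries did not overlap, and its log2 fold change was 0.39 ± 0.083 (edgeR adjusted p = 2.08e-04), whereas Mrpl23 was at -0.23 ± 0.35 and was not called. Reads from near-identical copies can be split between them, so the level of Mrpl23 is uncertain. Of all members, 24 had fractional estimates in at least 1 library, and 17 had over 10% of their exon length covered by another gene, 13 on the opposite and 4 on the same strand.

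The large subunit genes not called were Mrpl1, Mrpl3, Mrpl4, Mrpl10, Mrpl11, Mrpl12, Mrpl13, Mrpl15, Mrpl17, Mrpl18, Mrpl19, Mrpl21, Mrpl22, Mrpl23, Mrpl27, Mrpl28, Mrpl32, Mrpl35, Mrpl36, Mrpl37, Mrpl38, Mrpl39, Mrpl40, Mrpl41, Mrpl42, Mrpl44, Mrpl46, Mrpl48, Mrpl49, Mrpl50, Mrpl53, Mrpl55, Mrpl57 and Mrpl58, with log2 fold changes from -0.23 to 0.23. Those of the small subunit were Mrps5, Mrps14, Mrps17, Mrps18a, Mrps18b, Mrps18c, Mrps21, Mrps24, Mrps25, Mrps26, Mrps27, Mrps28, Mrps30, Mrps33 and Mrps36, from -0.18 to 0.15. In 10 of these 49 genes the libraries of the media did not overlap, which was so for 55.8% of all tested genes, called or not. The share among all uncalled genes was not counted. The most abundant among them, Mrpl10, measured 54.5, 53.6 and 54.4 CPM in control medium and 54.1, 52.3 and 52.2 CPM in senescent medium, and was at -0.035 ± 0.051 (SE).

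Members with and without a counterpart in the bacterial ribosome were both called in either direction. Of 46 with a counterpart 11 were called higher (23.9%) and 8 lower (17.4%), with a median log2 fold change of -0.033. Of 32 without a listed counterpart 5 were called higher (15.6%) and 5 lower (15.6%), with a median of -0.024. Over all tested genes these shares were 24.6% higher and 24.9% lower. Mrps18a and Mrps18b, paralogs of Mrps18c that were not called, stand here among those without a counterpart. The difference between these counts was not tested.

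Many mitochondrial ribosomal protein genes share their start region with a gene that runs the other way. In the GENCODE M21 annotation (GRCm38), 32 of the 78 members (41.0%) had a listed protein-coding neighbour starting on the opposite strand within 1000 bp. The same held for 1976 of 12680 tested protein-coding genes (15.6%), whether or not the neighbour was tested. All 32 neighbours of the members were tested. Of the 32 neighbours 2 were called higher and 12 lower, the latter including the member Mrps11. Among all tested genes 24.6% were called higher and 24.9% lower, and the difference was not tested. The fitted changes of member and neighbour had the same sign in 14 of 32 pairs. The pair of Mrps11 and Mrpl46, both with negative estimates, is counted there from each side. Both genes were called in 4 pairs, 3 of them in the same direction.

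Those 3 were Mrpl51 with Ncapd2 (-0.36 and -1.36), Mrps12 with Sars2 (-0.37 and -0.49) and Mrps34 with Eme2 (-0.17 and -0.63, all log2). Ncapd2 encodes a condensin subunit, Sars2 the mitochondrial seryl-tRNA synthetase and Eme2 part of a DNA endonuclease. Mrpl2 rose by 0.23 while Klc4, a kinesin light chain, fell by 0.31. The member Mrpl57 was at 0.17 and was not called, whereas its neighbour Ska3, a kinetochore protein, was at -1.34 (edgeR adjusted p = 7.89e-08). Mrps11 and Mrpl46 are each other's neighbour, one of each subunit, and stood at -0.41 and -0.015.

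**Figure D4:**
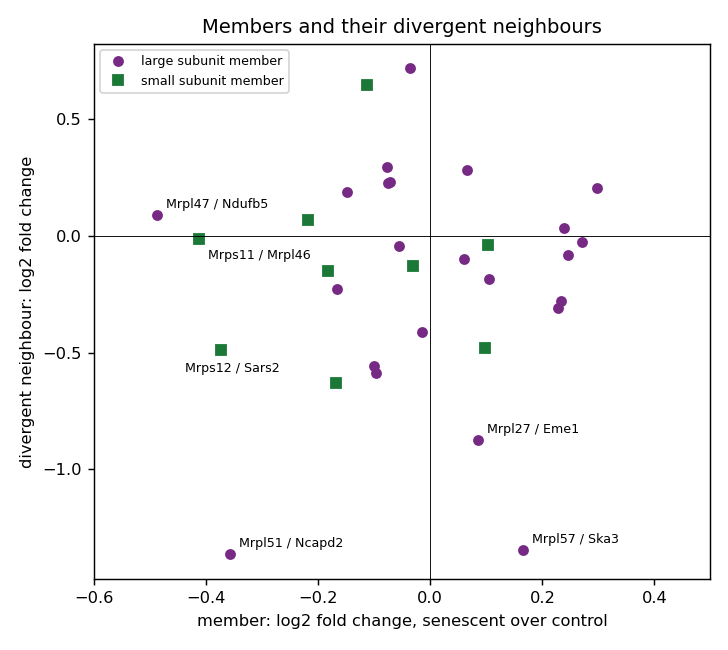
Log2 fold change of 32 members (horizontal) and of the gene that starts within 1000 bp on the opposite strand (vertical); each point is 1 member, coloured by subunit, and some pairs are labelled with the member first. Members span a narrow range while neighbours reach -1.36 for Ncapd2 and -1.34 for Ska3.

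The stretches upstream of the called members are shown for 3 genes, since they hold the sequence between divergent starts or the motif matches described next. They are RefSeq sequence of GRCm38.p6, written on the strand of the named gene, and capitals mark matches to the core motif of nuclear respiratory factor 1 (NRF1) or to the GC box in either orientation:
Mrps11 (chr7:78783090-78783118, + strand): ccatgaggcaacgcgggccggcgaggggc
Mrps12 (chr7:28741822-28741991, - strand): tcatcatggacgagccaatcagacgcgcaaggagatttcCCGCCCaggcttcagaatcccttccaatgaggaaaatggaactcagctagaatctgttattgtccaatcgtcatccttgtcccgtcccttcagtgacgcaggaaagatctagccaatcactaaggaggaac
Mrpl45 (chr11:97315532-97315715, + strand): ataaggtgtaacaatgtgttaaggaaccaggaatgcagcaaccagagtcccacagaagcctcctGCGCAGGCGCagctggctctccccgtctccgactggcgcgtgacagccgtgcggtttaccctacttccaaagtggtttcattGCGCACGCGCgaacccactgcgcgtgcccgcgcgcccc
The first is the stretch upstream of both Mrps11 and Mrpl46. The second lies upstream of Mrps12, towards Sars2. The third holds 2 NRF1 matches.

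A window of 300 bases (250 before and 50 after the RefSeq start) was matched for 69 of the 78 members by symbol. Its median GC content was 58.7% over all windows of the members and 52.7% over all windows of the table, which include genes not tested here. The median over the windows of tested genes was not taken. The NRF1 core motif was found in 18.8% of members (exact binomial 95% interval 10.4% to 30.1%), in 5.19% of all 27025 genes with a window and in 11.4% of the 10300 of them that were tested. The ETS motif CCGGAAG, bound by GABP among others, was found in 37.7% of members (26.3% to 50.2%), 9.93% of all genes and 20.0% of tested genes. The YY1 motif AAGATGGC was found in 17.4% of members (9.32% to 28.4%), 3.19% of all genes and 5.22% of tested genes, and the E-box CACGTG in 7.25% of members (2.40% to 16.1%), 8.09% of all genes and 11.8% of tested genes. All were searched on both strands, and a match is a description of letters, not a bound site. The members are not a random sample of genes, so the intervals are no test against the other shares. The differences between these shares were not tested. The GC box was found in 49.3% of members, 38.2% of all genes and 69.1% of tested genes.

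Members with a motif match were called in both directions for NRF1 and ETS. Of 13 members with an NRF1 match 4 were called higher and 1 lower, and of 56 without one 10 and 11. Of 26 with an ETS match 5 were called higher and 4 lower, and of 43 without 9 and 8. Of 12 with a YY1 match none was called higher and 3 were called lower, and of 57 without 14 and 9. Of 5 with an E-box match 2 were called higher and 0 lower, and of 64 without 12 and 12. Among all tested genes 24.6% were called higher and 24.9% lower. These counts were not tested. The genes for NRF1 and for the GABP subunit Gabpa were not called, at -0.15 ± 0.092 and 0.084 ± 0.046 on the log2 scale. Yy1 measured 127, 129 and 126 CPM in control medium and 120.2, 116 and 116 CPM in senescent medium. These did not overlap, and Yy1 was called lower, at -0.12 ± 0.039 (edgeR adjusted p = 0.0155). Any tie between the level of Yy1 and the members' values was not tested.

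The rest of the mitochondrial translation pathway was called about as often as all tested genes. Over 119 tested genes in 8 lists (the mitochondrial rRNAs apart), 28 were called higher (23.5%) and 33 lower (27.7%), with a median log2 fold change of -0.069. These shares are near the 24.6% and 24.9% of all tested genes. Of 5 further ribosomal subunits with other symbols, 2 were called higher and 1 lower. Aurkaip1, the small subunit protein also known as MRPS38, rose from 39.1 ± 3.25 to 49.2 ± 3.07 CPM, or 0.33 ± 0.063 (edgeR adjusted p = 5.52e-05) on the log2 scale. Gadd45gip1, the large subunit protein also known as MRPL59, fell from 31 ± 2.08 to 26.3 ± 2.5 CPM, or -0.23 ± 0.074 (edgeR adjusted p = 0.00985) on the log2 scale. The call of Gadd45gip1 is lost without control library 3 and without senescent library 3.

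Of 12 translation factors 2 were called higher and 2 lower. The higher count is 1 with DESeq2, with library totals and without control library 1, control library 2 or senescent library 3, and the lower count is 1 without control library 2. Mrrf, the ribosome recycling factor, rose by 0.39 ± 0.077, and Tufm, the elongation factor that brings tRNA to the ribosome, fell by 0.26 ± 0.071 on the log2 scale. Of 20 genes listed for the formation of mitochondrial aminoacyl-tRNA 3 were called higher and 8 lower, with a median of -0.12. The list holds synthetases and the amidotransferase subunit genes Qrsl1 (called lower, -0.37), Gatb and Gatc (both not called). The lower count is 5 with DESeq2 and without control library 2, senescent library 1 or senescent library 3. The higher count is 1 without control library 2 or senescent library 1. Hars2 was at -0.56 ± 0.091 (edgeR adjusted p = 6.62e-06) and Rars2 at 0.53 ± 0.095 (edgeR adjusted p = 2.23e-05). Of 28 genes for assembly and rRNA modification 5 were called higher and 7 lower, with a median of -0.14, and 4 lower with DESeq2. Fastkd3, an RNA-binding protein of mitochondria, was at -0.72 ± 0.13 (edgeR adjusted p = 2.23e-05), and Mrm1, a methyltransferase of the large rRNA, at 0.50 ± 0.096 (edgeR adjusted p = 6.77e-05).

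Of 19 genes for mitochondrial transcription and RNA processing 5 were called higher and 5 lower, and 3 and 3 with DESeq2. Leaving out control library 1 or 3 or senescent library 3 left 3 higher, and leaving out control library 2 left 3 lower. Polrmt, the mitochondrial RNA polymerase, measured 32, 32 and 30.6 CPM in control medium and 21.6, 22.4 and 20.5 CPM in senescent medium. Its libraries did not overlap, with a log2 fold change of -0.55 ± 0.069 (edgeR adjusted p = 6.54e-08). Grsf1, an RNA-binding protein of mitochondrial RNA granules, was at 0.21 ± 0.048 (edgeR adjusted p = 4.19e-04). Of 12 genes for membrane insertion and proteolysis 3 were called higher and 4 lower, among them Letm1 at -0.48 ± 0.055 (edgeR adjusted p = 1.66e-08) and Spg7, a protease subunit that matures Mrpl32, at -0.40 ± 0.047 (edgeR adjusted p = 1.73e-08). Of 10 regulators of mitochondrial biogenesis 1 was called higher, Myc at 0.35 ± 0.064 (edgeR adjusted p = 3.00e-05), and 3 lower, with Pprc1, a coactivator related to PGC-1α, at -0.31 ± 0.058 (edgeR adjusted p = 4.52e-05).

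The mRNAs that the mitochondrial ribosome translates were mostly higher. Of 13 mitochondrially encoded mRNAs 7 were called higher and 3 lower, with a median log2 fold change of 0.21. Summed over the list, the level was 24628 to 26859 CPM in control and 29896 to 30150 CPM in senescent medium, without overlap. The complex I subunit mt-Nd5 measured 2134, 2350.1 and 2436 CPM in control medium and 3106, 3254 and 3101 CPM in senescent medium. Its log2 fold change was 0.45 ± 0.04 (edgeR adjusted p = 1.40e-09), and that of mt-Nd6, its neighbour on the other strand, 0.47 ± 0.034 (edgeR adjusted p = 5.04e-13). Called lower were mt-Co2 (-0.16), mt-Nd1 (-0.12) and mt-Atp6 (-0.088, all log2), of which 1 call is left without control library 3 and with GC and length trends removed. Reads of mitochondrial genes that adjoin on opposite strands cannot be told apart where they overlap. Of the 2 mitochondrial rRNAs, the large one, mt-Rnr2, was called higher (0.20) and the small one, mt-Rnr1, was not called (-0.18). It measured 199.8, 182 and 183 CPM in control medium and 189.7, 160.0 and 149 CPM in senescent medium, which overlap, and it was called lower without senescent library 1 (-0.29, edgeR adjusted p = 9.55e-06).

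Calls among the cytosolic ribosomal protein genes, by contrast, were nearly all rises. Of 78 tested cytosolic ribosomal protein genes 47 were called higher and 1 lower, with a median log2 fold change of 0.19, beside 16 and 13 of 78 mitochondrial ones. Of 79 tested nuclear genes for the respiratory chain and ATP synthase 26 were called higher and 10 lower, with a median of 0.11. With library totals these counts were 30 and 3 (median 0.11) for the cytosolic ribosome, 16 and 15 for the respiratory chain, and 5 and 24 for the mitochondrial ribosome. The differences between these groups of genes were not tested.

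**Figure D5:**
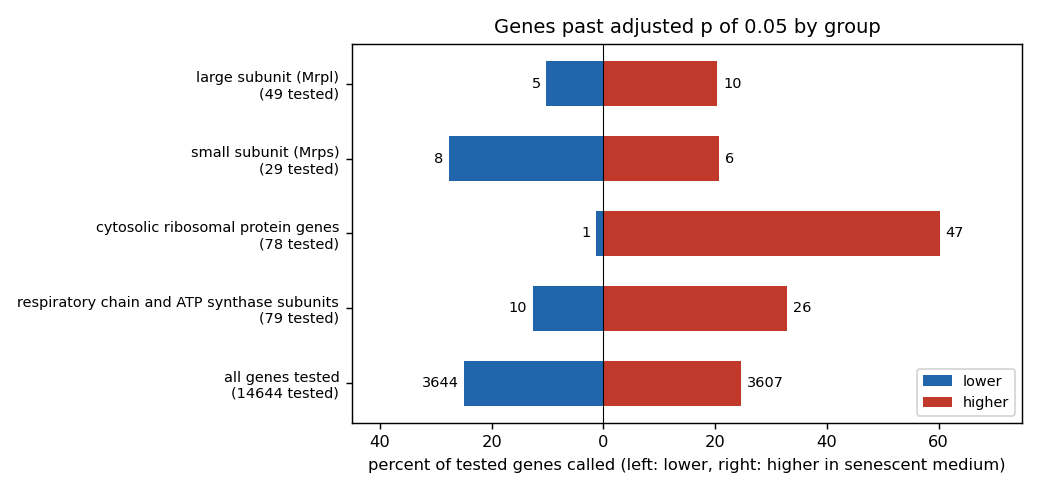
Share of tested genes called lower (left of 0) and higher (right of 0) in senescent medium for the large and small mitochondrial ribosomal subunits, cytosolic ribosomal protein genes, respiratory chain and ATP synthase genes and all tested genes; numbers at the bars count genes. The cytosolic set has 47 higher and 1 lower, and the mitochondrial subunits have 10 and 5 and 6 and 8.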

How the data were processed

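Paired reads of 150 bp were obtained from about 600 ng of RNA per sample, per the labels' protocols. Values in the deposited table are estimated counts by Ensembl identifier, without normalization. Per the submitters' processing notes, STAR, DESeq2 and build mm39 were involved, in roles not stated; which counter, annotation and strand setting the authors used is not given in the sources used here. Per library, 70.3% to 72.8% of values were whole to within 0.01, and every listed gene had at least 10 counts over the 6 libraries.

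Symbols (18092 of 18124 identifiers), exon lengths and overlaps came from GENCODE M21 (GRCm38). Counts were rounded and tested with edgeR 4.0.16 in R 4.3.3 (quasi-likelihood F-test, robust, TMM, expression filter, two-sided, Benjamini-Hochberg over 14644 genes, threshold 0.05), with medium as the only term; standard errors are the absolute log2 fold change over the square root of F. CPM use unrounded estimates. The fit was also run on counts simulated from the means and dispersions of these data, with far fewer changed genes than were called here. That run was a check of the code, not of the calls in these data. Alternatives were DESeq2 1.42.0, limma-voom 3.58.1, other scalings and filters, an adjusted p of 0.01, the replicate block and leaving out each library; 3 were added after seeing the data (without the most abundant feature, with GC and length trends removed, without Mrps6). Low counts limit the precision of genes such as Mrpl23, whose reads can also be split with a pseudogene. The intervals of the motif shares are binomial and treat genes as independent draws.

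The members and lists were chosen with earlier results of these data known. Genes named are, per subunit, the 6 largest called falls and rises without overlap and with at least 5 CPM, every call in the rarer direction, members with special roles, and the 2 smallest adjusted p per list; other names (Slc5a3, divergent neighbours, pseudogenes, remaining calls) were chosen after their values were seen.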

Additional observations from a re-analysis of the deposited data

How the results depend on the processing

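Members called higher and lower (16 and 13) became 5 and 24 with library totals, 10 and 8 with DESeq2 and 6 and 8 at an adjusted p of 0.01. For the large subunit (10 and 5) they became 4 and 14 with library totals and 6 and 9 with GC and length trends removed, and the higher count 5 at 0.01. For the small subunit (6 and 8) they became 3 and 4 with DESeq2 and 1 and 4 at 0.01, and the higher count 1 with library totals. Pathway genes called lower went from 33 to 21 at 0.01. With 1 library left out, members called higher ranged from 8 to 16 and lower from 10 to 13; the higher count was 10 without control library 2 or 3 and 8 without senescent library 3. For the large subunit these ranges were 6 to 12 and 4 to 6, with 6 higher without any of those 3 libraries, and for the small subunit 2 to 5 and 6 to 7, with 2 higher without senescent library 3. Pathway genes ranged from 22 to 26 higher and 25 to 32 lower.

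The large subunit median (-0.035) was -0.12 with library totals and the small subunit median (-0.017) -0.098. Over the libraries left out the large median ranged from -0.043 to -0.026 and the small one from -0.048 to 0.028, the last without control library 1. The log2 ratio between media of the large subunit summed level (0.012) was -0.069 with library totals and ranged from -0.0089, without control library 3, to 0.047. That of the small subunit summed level (-0.17) was -0.25 with library totals, -0.25 per kb and -0.012 without Mrps6, and ranged from -0.19 to -0.15. The difference between both ratios (0.18) was 0.27 per kb and 0.025 without Mrps6, and ranged from 0.17 to 0.20. With only the 250 bases before the start, ETS matches fell to 26.1% of members (from 20.0% to 15.6% of tested genes) and YY1 matches to 5.80% (from 5.22% to 2.41% of tested genes). Of the 49 uncalled members, 19 changed sign under at least 1 setting, and none of the 29 called members did. Among those named, Mrpl23 ranged from -0.51 to 0.20 and Mrpl46 from -0.11 to 0.036 over all settings. Mrps18a was 0.0061 with upper-quartile scaling and -0.040 to 0.024 with 1 library left out, Mrps18c -0.14 to 0.11, and Mrpl12 0.014 with upper-quartile scaling and -0.052 to 0.034. The cause of these changes was not tested.

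Same-numbered libraries did not deviate together (correlations 0.019, 0.0019 and 0.026 over genes). With the replicate block 16 members were called higher and 13 lower, among 3704 and 3698 of all tested genes, and the block removed none of the members' calls, while mt-Rnr1 was called lower (-0.19, edgeR adjusted p = 8.02e-05). The planned comparison of protein identity was not run. Mrpl23 had at most 32.6 counts in a library, and its reads can be split with its pseudogene, so its level is uncertain.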
